A study of Homo sapiens with 16 samples.

Results

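Contacts that join the short arm of a chromosome to its long arm, across the centromere, were examined in Hi-C maps of K562 cells. The genome was divided into 500 kb bins of build hg19, and each of the 17 chromosomes 1 to 12 and 16 to 20 was split into arms at its longest run of 20 kb bins that were absent from all 8 maps. This run is called the gap here. All pairs of bins on opposite arms were taken, which gave 326346 cross-arm pairs of 15437346 pairs of valid bins in the whole map. They were set against 399717 pairs of bins on the same arm. For 187139 cross-arm pairs (57.3%) the same chromosome also held enough same-arm pairs at exactly the same distance, and the arm comparisons below rest on these. The remaining cross-arm pairs enter only the contact shares and the comparison with other chromosomes.

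Hi-C ligates fragments of chromatin that are close to one another in the fixed nucleus and counts each ligated pair as a contact. Within a chromosome the number of contacts falls with distance along the DNA, and each chromosome occupies a territory of its own. Centromeres consist of long arrays of satellite repeats in which short reads cannot be placed, so a Hi-C map is blank there and the 2 arms meet across an empty strip. On a larger scale, chromatin separates into an active, gene-rich class and an inactive, gene-poor class, and segments of a class contact each other more often than segments of different classes.

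K562 is an established line of human chronic myeloid leukaemia cells. Its chromosomes are rearranged, and the distances used here are those of the hg19 reference, not of the rearranged chromosomes. Cells fixed with formaldehyde were digested in the nuclei with the restriction enzyme HindIII for 0.25, 1, 3 or 12 h, and were otherwise treated alike, so that every group shares the line, the fixation and the enzyme. The series varied this time to reach the most accessible chromatin first. Each time had 2 replicates, and the labels do not say that they came from separate cultures, so the p-values measure only the spread between these libraries.

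The second, deeper of 2 sequencing runs was used, with 62777251 to 176412222 contacts per library. Of these, 783725 to 2781431 joined opposite arms. The pair of bins that holds the BCR-ABL1 fusion of chromosomes 9 and 22, which defines this line, carried 487 to 564 times the mean signal between those chromosomes in all 8 libraries. Depth rose with digestion time (Spearman's rho 0.781, exact two-sided permutation p = 0.0349, n = 8). The share of contacts between chromosomes rose as well, from 9.65% and 9.84% at 0.25 h to 11.9% and 12.0% at 12 h.

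At equal distance, bins on opposite arms were in contact less often than bins on the same arm. The measure is the arm ratio, the balanced signal summed over cross-arm pairs divided by the signal that same-arm pairs at the same distances on the same chromosome would give, so that a ratio of 1 means no difference between arms. Averaged on a log2 scale over the 17 chromosomes, it was 0.636 and 0.639 in the replicates at 0.25 h, 0.642 and 0.649 at 1 h, 0.654 and 0.650 at 3 h, with 0.676 and 0.676 at 12 h. All 8 libraries lay well below 1, and they lay close together. The size of the deficit depended on how chromosomes and bins were weighted, with mean log2 ratios from -0.72 to -0.52 over the settings tried against -0.62 here, always below 0.

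When all chromosomes were summed, the deficit was deepest at short and intermediate distances. The ratio over the 8 libraries was 0.635 for bins 5 to 10 Mb apart and 0.592 at 10 to 15 Mb. Its lowest value up to 135 Mb was 0.559, at 30 to 35 Mb. From there it climbed to 0.677 at 50 to 55 Mb, 0.813 at 60 to 65 Mb and 0.944 at 65 to 70 Mb. Between 65 and 90 Mb it stayed from 0.914 to 0.974, so in the sum opposite arms and the same arm differed little there. Single chromosomes departed in both directions, and from 80 Mb on they ranged from 0.481 on chromosome 7 to 1.40 on chromosome 6. Between 90 and 125 Mb the summed ratio was above 1 in every 5 Mb class except 105 to 110 Mb (0.947). Its highest value there was 1.16 at 110 to 115 Mb. Fewer chromosomes are long enough for such distances, from 16 at 25 to 30 Mb down to 4 at 110 to 115 Mb. Beyond 135 Mb only chromosome 2 was left, with ratios of 0.527 and 0.404. At distances longer than a chromosome's shorter arm, the same-arm signal comes from its longer arm alone, since a pair must fit within an arm.

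**Figure D1:**
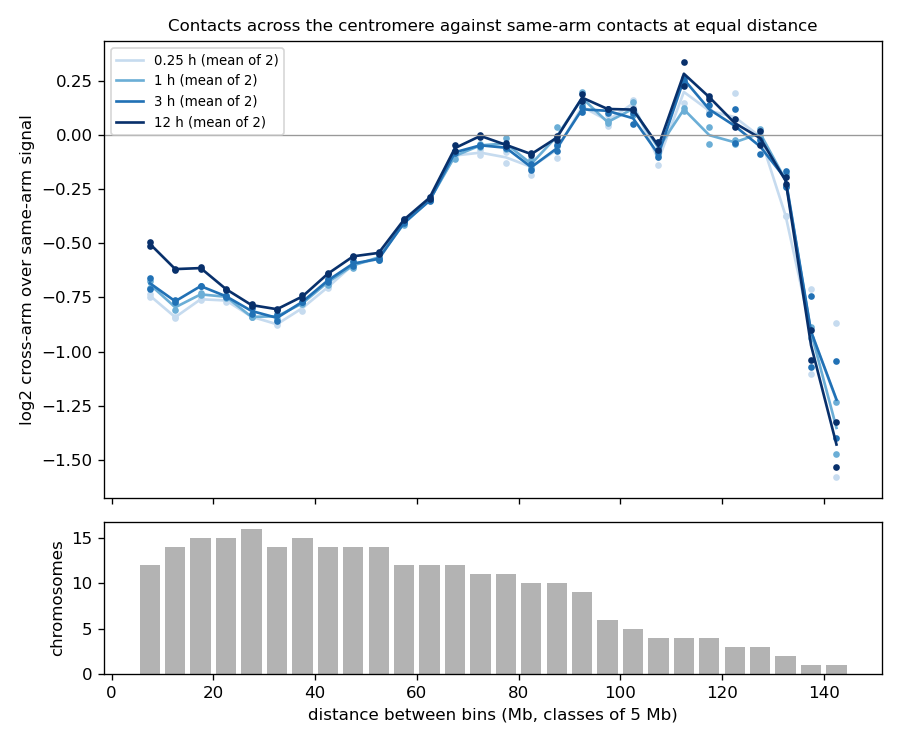
Upper panel: log2 of cross-arm over same-arm signal (vertical axis) against the distance between the bins in classes of 5 Mb (horizontal axis, Mb), with a point per library and a line per digestion time through the mean of its 2 libraries. Lower panel: number of chromosomes that hold such pairs. The lines lie below 0 up to about 65 Mb and near or above 0 between 65 and 125 Mb. The 12 h line lies highest below 20 Mb, and the fall at the right end is chromosome 2 alone.

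The deficit followed the position of the bins along the arms. Where the nearer bin lay within 5 Mb of the gap, the ratio was 0.635, over 33785 pairs. It was 0.625 at 5 to 10 Mb and 0.684 at 10 to 20 Mb. At 20 to 40 Mb it was 0.961, and with both bins more than 40 Mb from the gap it was 1.03, over 11930 pairs. Position and distance are not independent, because bins far from the gap are also far apart. In a map of both positions the lowest cell, 0.479, joined bins 10 to 15 Mb from the gap on both arms. The 4 cells with both bins 50 to 60 Mb out held 1.49 to 1.95 times the same-arm signal and were above 1 in all 8 libraries, but each rests on 100 to 103 pairs, nearly all from a single chromosome. The lowest cell rests on all 17 chromosomes.

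**Figure D2:**
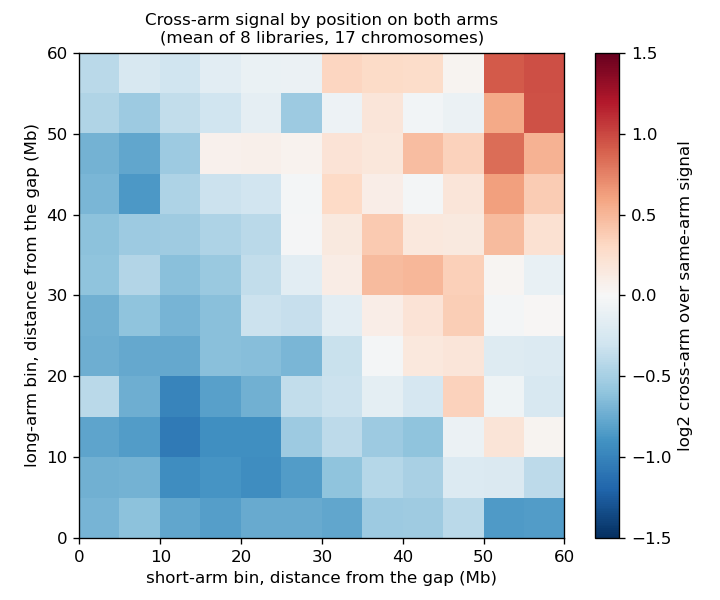
Log2 of cross-arm over same-arm signal as colour, mean of the 8 libraries over the 17 chromosomes, by the distance of the short-arm bin (horizontal axis, Mb) and of the long-arm bin (vertical axis, Mb) from the gap, in steps of 5 Mb. Blue cells, below 0, fill the area near the gap on either arm, and the darkest cell joins bins 10 to 15 Mb out on both arms. Red cells lie at the upper right, and nearly all pairs of the 4 in the corner come from a single chromosome.

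Chromosomes differed widely. Of 17 chromosomes, 16 had a ratio below 1 in all 8 libraries, and chromosome 1 was the exception. Chromosome 17 was the lowest, with a ratio of 0.296 over the 8 libraries and a log2 range from -1.87 to -1.65. Chromosome 20 followed with 0.395 (log2 range -1.46 to -1.20), and no library of either chromosome reached the range of any other. With 90% of a bin present, chromosome 19 had a log2 level of -1.32, beside -1.31 for chromosome 20, and chromosome 17 was still the lowest. Chromosomes 5 and 7 came next, with 0.536 and 0.569. They were followed by chromosomes 16 (0.613), 9 (0.655), 12 (0.666), 19 (0.677), 4 (0.694), 11 (0.697) and 18 (0.708), whose ranges overlap with those of their neighbours in this order. Chromosomes 3 (0.752), 8 (0.760), 6 (0.787) and 10 (0.789) were higher. Chromosome 2, with 0.923, and chromosome 1, with 0.973, stood nearest to 1. These ratios cover unlike distances. Chromosome 1 had no compared pair under 29.5 Mb, and chromosome 19 had none beyond 26 Mb. Of the 16546 compared pairs of chromosome 1, 10486 lay at 80 Mb or more. At 40 to 80 Mb its ratio was 0.790. Chromosomes 2, 3, 6, 8, 10 and 11 were higher there (0.801 to 1.05), and the others with such pairs were lower. On recovered contacts chromosomes 10 and 18 had log2 levels of -0.04 (balanced signal -0.34 and -0.50). Chromosome 9, at -0.61 here, stood at 0.26 with 1 Mb bins and at -1.11 with 90% of a bin present. The order above chromosome 17 thus depends on the setting.

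Chromosome 17, short and rich in genes, was low at every distance. Its ratio was 0.230 under 20 Mb, 0.363 at 20 to 40 Mb and 0.249 at 40 to 80 Mb. Its cross-arm contacts made up a median of 1.49% of its contacts between different bins, against 4.01% on chromosome 20 and 4.77% on chromosome 19, the most gene-dense chromosome. Only chromosome 9 had a lower share, 1.10%, and its gap of 18.38 Mb is among the widest. The order also depends on how a chromosome is summarised. Over pairs of 5 Mb blocks the median log2 level was -2.46 on chromosome 9, where 3 of 23 cross-arm pairs lay above the same-arm expectation, and -1.80 on chromosome 17, where 0 of 39 did.

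On the longest chromosomes the ratio changed with distance. Chromosome 2 had 0.516 under 20 Mb, 0.974 at 20 to 40 Mb, 0.870 at 40 to 80 Mb and 1.04 beyond 80 Mb. Chromosome 6 had 0.908 under 20 Mb, 0.525 at 20 to 40 Mb and 1.40 beyond 80 Mb. Not all long chromosomes rose above 1 at long range, since beyond 80 Mb chromosome 7 had 0.481 and chromosome 5 had 0.697. Chromosome 18 was near 1 under 20 Mb (0.912) and low at 20 to 40 Mb (0.545).

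Gap width and chromosome size were set beside these levels as descriptions. The gap was 2.98 to 3.32 Mb wide on 14 chromosomes, and 21.04 Mb on chromosome 1 (hg19 positions 121500001 to 142540000), 18.38 Mb on chromosome 9 (47220001 to 65600000) and 11.18 Mb on chromosome 16 (35280001 to 46460000). On these 3 chromosomes only 33.8%, 17.3% and 23.2% of the cross-arm pairs could be compared. Over the 17 chromosomes the log2 arm ratio had a Pearson's r of 0.617 and a Spearman's rho of 0.527 with chromosome length. With gap width r was 0.256 and rho 0.145, and with the length of the shorter over the longer arm r was 0.171 and rho 0.206. Gap width hardly varied outside chromosomes 1, 9 and 16, so its r and rho say little. This width is counted in hg19 coordinates and is not a measured size of the centromere. It is part of every cross-arm distance. The 17 values share libraries, depth and balancing and are not independent samples.

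**Figure D3:**
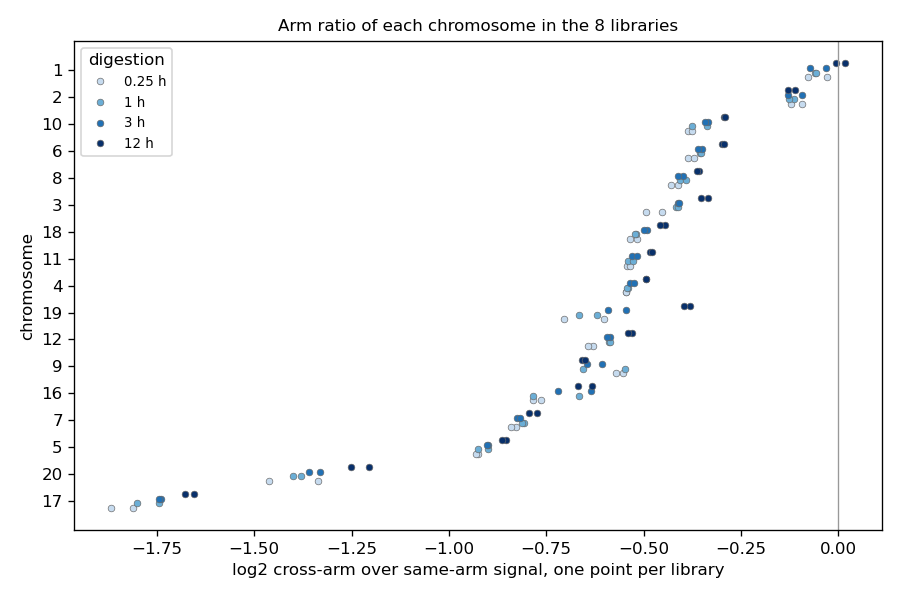
Log2 of cross-arm over same-arm signal (horizontal axis) for each of the 17 chromosomes (vertical axis, highest level on top), with a point for each of the 8 libraries, darker for longer digestion. Chromosomes 17 and 20 lie apart at the left, chromosomes 1 and 2 lie near 0, and in most rows the darkest points lie furthest right.

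Cross-arm contacts became more frequent with longer digestion. The share of contacts between different bins of these chromosomes that joined opposite arms was 3.51% and 3.63% at 0.25 h, 3.61% and 3.69% at 1 h, 3.65% and 3.74% at 3 h, with 3.96% and 4.03% at 12 h. Among the first 3 times neighbours overlap, and both 12 h libraries lie above all others. At each time replicate 2 was the higher. The means were 3.57% ± 0.0885, 3.65% ± 0.0588, 3.69% ± 0.0697 and 3.99% ± 0.0498 (SD, n = 2 each). The share rose with log2 hours (Spearman's rho 0.878, exact permutation p = 0.0103, two-sided, or 0.0177 after Benjamini-Hochberg adjustment over 12 trends, n = 8). Pearson's r over all times equalled 0.888 (exact permutation p = 0.00476). It equalled 0.912 without the 0.25 h libraries and 0.706 (exact permutation p = 0.122) without the 12 h libraries, so the trend rests on the 12 h libraries.

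The arm ratio itself rose with time, with means of 0.637 ± 0.00211, 0.645 ± 0.00526, 0.652 ± 0.00309 and 0.676 ± 0.000346 from the shortest to the longest digestion (SD, n = 2 each). Libraries of neighbouring times did not overlap at any step. The step from 3 to 12 h, 0.05 on the log2 scale, was larger than the steps of 0.02 and 0.01 before it, and all were above the pooled replicate SD of 0.0072. Spearman's rho was 0.976 (exact permutation p = 0.000794, the smallest these 2520 arrangements can give, Benjamini-Hochberg value 0.00476, n = 8). On the linear measure, Pearson's r, the value was 0.946 with the same exact permutation p of 0.000794. Without the 0.25 h libraries r was 0.952, and without the 12 h libraries it was 0.917. With bins within 5 Mb of the gap left out, rho was 0.732 and no longer past the threshold (exact permutation p = 0.0548). With contacts thinned to equal depth rho was 0.927 (exact permutation p = 0.00317), and with the mean level between chromosomes subtracted it was 0.976 (exact permutation p = 0.000794).

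The rise was largest for the nearest pairs. Under 20 Mb the ratio was 0.578 and 0.578 at 0.25 h, 0.590 and 0.595 at 1 h, 0.605 and 0.605 at 3 h, with 0.660 and 0.656 at 12 h. The times did not overlap, and the spread between replicates was small beside the steps (rho 0.976, exact permutation p = 0.000794, Benjamini-Hochberg value 0.00476, r 0.945, n = 8). For bins 5 to 10 Mb apart the ratio went from 0.598 at 0.25 h to 0.706 at 12 h, and at 10 to 15 Mb from 0.558 to 0.651. By position, pairs with a bin within 5 Mb of the gap went from 0.615 to 0.666, and pairs with the nearer bin 20 to 40 Mb out from 0.950 to 0.978.

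At 20 to 40 Mb the ratio was 0.566 and 0.569 at 0.25 h, 0.575 and 0.574 at 1 h, 0.581 and 0.575 at 3 h, with 0.589 and 0.591 at 12 h (rho 0.927, exact permutation p = 0.00317, Benjamini-Hochberg value 0.00762, r 0.955, n = 8). At 40 to 80 Mb it was 0.753 and 0.758, 0.759 and 0.764, 0.763 and 0.763, and 0.776 and 0.775 (rho 0.878, exact permutation p = 0.0103, Benjamini-Hochberg value 0.0177, r 0.919, n = 8). In both bands the 12 h libraries were the highest and the 0.25 h libraries the lowest. Without the 12 h libraries r was 0.896 at 20 to 40 Mb (exact permutation p = 0.0222). At 40 to 80 Mb it was 0.796 and not past the threshold (exact permutation p = 0.1). In the shallower first run neither trend passed the threshold, with a rho of 0.683 at 20 to 40 Mb and 0.634 at 40 to 80 Mb (exact permutation p = 0.0825 and 0.110).

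From 80 Mb on, the ratio was 0.969 and 0.955 at 0.25 h, 0.963 and 0.970 at 1 h, 0.976 and 0.958 at 3 h, with 0.992 and 0.981 at 12 h. The first 3 times overlap and the 12 h libraries are the highest. Without the 12 h libraries r was 0.282 (exact permutation p = 0.544). The trend did not pass the threshold (rho 0.732, exact permutation p = 0.0548, Benjamini-Hochberg value 0.0821, r 0.726, n = 8). It did without replicate 1 of 0.25 h (rho 0.826), replicate 1 of 1 h (0.808) or replicate 2 of 3 h (0.899), and on recovered contacts in place of balanced signal its direction was the opposite (rho -0.781, exact permutation p = 0.0349). Differences between the bands in the size of the rise were not tested.

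**Figure D4:**
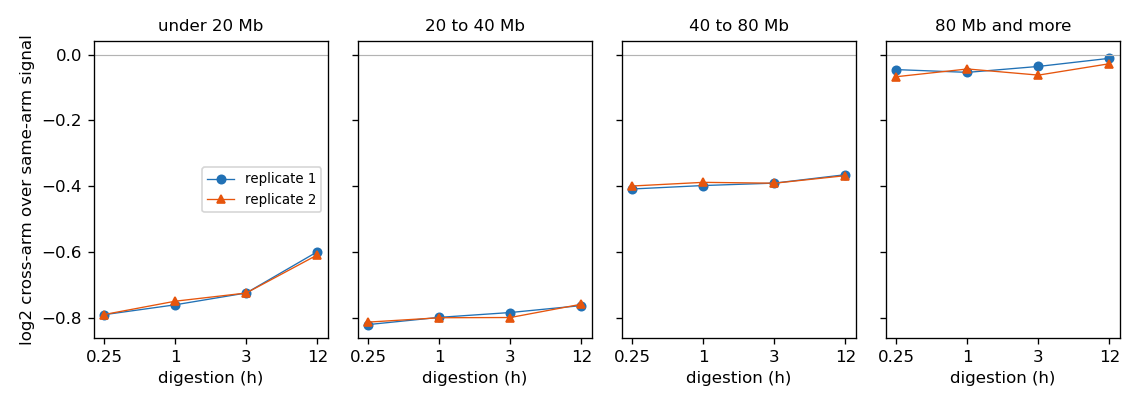
Log2 of cross-arm over same-arm signal (vertical axis) against digestion time (horizontal axis, h, evenly spaced) in 4 panels by the distance between the bins, with a point per library and a line per replicate number. Under 20 Mb the points climb from -0.79 to about -0.60, and in the other panels the climb is smaller.

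Nearly all chromosomes took part in the rise. By limma on the log2 arm ratios with Benjamini-Hochberg adjustment over the 17 chromosomes, 16 differed between 0.25 h and 12 h (94.1% of those tested). Of these, 15 were lower at 0.25 h (88.2%) and 1 was higher (5.88%), and in the same 16 the libraries of the 2 times did not overlap. The median difference, 0.25 h minus 12 h, was -0.07 on the log2 scale. Between 3 and 12 h 14 chromosomes were called (82.4%) and between 1 and 12 h 13 (76.5%), all lower at the earlier time. Between 0.25 and 1 h only chromosome 12 was called, and between 1 and 3 h 0 were (1 at an unadjusted p under 0.05). With bins within 5 Mb of the gap left out, 10 chromosomes were called between 0.25 and 12 h.

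In the deeper run with all libraries, chromosome 19 changed most. Its ratio was 0.614 and 0.659 at 0.25 h, 0.631 and 0.650 at 1 h, 0.685 and 0.663 at 3 h, with 0.768 and 0.760 at 12 h. The 1 h libraries lie within the range of 0.25 h, those of 3 h just above it and those of 12 h well above, with a log2 difference of -0.26 between 0.25 and 12 h (SE 0.037, limma adjusted p = 0.00138). This rank did not hold throughout, since without replicate 1 of 0.25 h the difference was -0.21, against -0.23 on chromosome 20. In the first run it was -0.09, behind chromosome 16 with -0.17 among others, and was not past the threshold (limma adjusted p = 0.288). With 90% of a bin present it was -0.25 and not past the threshold either (limma adjusted p = 0.584).

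Chromosome 17 had ratios of 0.274 and 0.285 at 0.25 h, 0.298 and 0.287 at 1 h, 0.300 and 0.298 at 3 h, with 0.318 and 0.312 at 12 h. The chromosome thus stayed the lowest at every time while its ratio rose (log2 difference -0.17, SE 0.026, limma adjusted p = 0.00164). The call was lost with 90% of a bin present (-0.11, limma adjusted p = 0.0988) and without bins within 5 Mb of the gap (-0.08, limma adjusted p = 0.228). Chromosome 20 had log2 ratios of -1.34 and -1.46 at 0.25 h, -1.38 and -1.40 at 1 h, -1.36 and -1.33 at 3 h, with -1.25 and -1.20 at 12 h. The difference between 0.25 and 12 h was -0.17 (SE 0.042, limma adjusted p = 0.00936). Its replicates at 0.25 h were the furthest apart, and without replicate 2 of 12 h the call was lost (limma adjusted p = 0.0547). On recovered contacts the difference of chromosome 20 was -0.04 and in the first run -0.10, neither past the threshold.

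Chromosome 12 had the smallest adjusted p, with ratios of 0.646 and 0.640 at 0.25 h, 0.664 and 0.666 at 1 h, 0.667 and 0.663 at 3 h, with 0.693 and 0.688 at 12 h (log2 difference -0.10, SE 0.0085, limma adjusted p = 0.000506). On recovered contacts it did not differ beyond the spread (0.0018, limma adjusted p = 0.850). Chromosome 3 went from 0.720 at 0.25 h to 0.788 at 12 h (log2 difference -0.13) and chromosome 16 from 0.585 to 0.637 (-0.12). The other called chromosomes that rose, 1, 4 to 8, 10, 11 and 18, differed by -0.09 to -0.05. The call for chromosome 16 was lost when any library of 0.25 or 12 h was left out, and that for chromosome 1 when any library of 1 or 12 h or replicate 1 of 0.25 h was left out. The difference of chromosome 16 was also smaller and not past the threshold on recovered contacts (-0.0489, limma adjusted p = 0.0888), with 90% of a bin present (-0.0559, limma adjusted p = 0.355), without bins near the gap (-0.0735, limma adjusted p = 0.668) and with 1 Mb bins (-0.0838, limma adjusted p = 0.175). On recovered contacts chromosome 1 differed in the opposite direction, by 0.07 (limma adjusted p = 0.00413).

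Chromosome 9 alone had a called difference in the other direction in balanced signal, as a ratio of sums. The median difference of its 23 cross-arm block pairs of 5 Mb was -0.10, the direction of the other chromosomes, while its strongest pair, with 2114 contacts per library, differed by 0.31 (SE 0.27, limma adjusted p = 0.564). Its ratio was 0.673 and 0.682 at 0.25 h, 0.635 and 0.684 at 1 h, 0.640 and 0.657 at 3 h, with 0.634 and 0.637 at 12 h. The 2 libraries of 0.25 h lie above those of 12 h, and 1 h spans nearly the whole range (log2 difference 0.09, SE 0.035, limma adjusted p = 0.0439). The call was lost when any library of 0.25, 3 or 12 h was left out, and the chromosome has only 1449 comparable pairs, none under 37 Mb. Of 10 other settings, 4 lost the call: the first run, 1 Mb bins, 90% of a bin present and without bins near the gap. Their differences were 0.0918, 0.142, 0.0719 and 0.0920 (limma adjusted p = 0.277, 0.150, 0.254 and 0.0687). On recovered contacts the difference was larger, 0.149 (limma adjusted p = 0.000729), as it was with the expectation from all chromosomes, 0.123 (limma adjusted p = 0.00134). Chromosome 2 was not called with the settings used here. Its ratio was 0.919 and 0.936 at 0.25 h, 0.924 and 0.916 at 1 h, 0.938 and 0.914 at 3 h, with 0.925 and 0.913 at 12 h, with all times overlapping (log2 difference 0.01, SE 0.017, limma adjusted p = 0.467). It was called in the opposite direction, lower at 0.25 h, on recovered contacts (-0.0423, limma adjusted p = 0.00353) and with 90% of a bin present (-0.0530, limma adjusted p = 0.00460). Within chromosome 2, pairs under 20 Mb rose from a mean log2 ratio of -0.97 at 0.25 h to -0.87 at 12 h. Pairs at 20 to 40 Mb went from 0.04 to -0.16. No test was made for these values. The block pair of 85000001 to 89500000 with 110000001 to 115000000, named below, lies at 20 to 40 Mb. Its mean log2 value went from 2.89 to 2.03, and its part in the change of this band was not tested.

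On a finer scale the chromosomes were divided into blocks of 5 Mb, and each pair of blocks was given its log2 signal over the same-arm expectation. There were 2084 cross-arm pairs of blocks, with a median of 412 contacts per library, and 4004 same-arm pairs. Of the cross-arm pairs, 1319 lay below the same-arm expectation in all 8 libraries and 420 above it in all 8. These counts were not made for same-arm pairs, so they do not show a scatter particular to cross-arm pairs. No cross-arm pair of blocks was called between 0.25 and 12 h (limma over all 6088 pairs, 0% called; 377 of 2084 cross-arm and 859 of 4004 same-arm pairs at an unadjusted p under 0.05). The median difference of the cross-arm pairs was -0.06 on the log2 scale, and that of the same-arm pairs 0.00078. The expectation is the same-arm mean of each library, so a same-arm median near 0 follows from the measure. With log2 hours in place of the 2 times, 11 cross-arm pairs were called, all rising, and 7 same-arm pairs, all falling. Of all pairs tested, 0.296% were called, 0.181% rising and 0.115% falling. With any single library left out, the trend called at most 1 cross-arm pair and the comparison of 0.25 and 12 h at most 3. With the replicate number as a block, the trend called 0 cross-arm and 0 same-arm pairs. With the spread modelled on the number of contacts, an alternative chosen after seeing the data, 808 of all 6088 pairs were called between 0.25 and 12 h (13.3%; 6.90% lower and 6.37% higher at 0.25 h). They were 154 of 2084 cross-arm pairs (7.39%), 137 lower and 17 higher, and 654 of 4004 same-arm pairs (16.3%), 283 lower and 371 higher. The trend called 136 cross-arm pairs in that fit, 116 rising and 20 falling, against 12.1% of all pairs, 6.04% in each direction. On recovered contacts in place of balanced signal, 368 cross-arm pairs (17.7%) were called between 0.25 and 12 h, 226 lower and 142 higher at 0.25 h, against 19.8% of all pairs, 10.7% lower and 9.07% higher. The trend there called 341, 203 rising and 138 falling, against 18.8% of all pairs, 10.2% rising and 8.61% falling. In each of these alternatives the share of cross-arm pairs called, both directions together, was below that over all pairs.

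Single pairs of blocks stood far from the expectation in every library. Those named here come from the 1989 cross-arm pairs with a mean of at least 100 contacts per library, and without this minimum lower levels occurred, with log2 values of -3.93 on chromosome 9, -3.57 on chromosome 17 and -3.30 on chromosome 2. The highest joined chromosome 1 positions 120000001 to 121500000, next to the gap, with 205000001 to 210000000, at 8.84 times the same-arm expectation (log2 range 2.58 to 3.63 over the 8 libraries), on a mean of 128 contacts per library. Chromosome 9 positions 35000001 to 39000000 stood at 7.14 times the expectation with 95000001 to 100000000 and at 7.11 times with 100000001 to 105000000. The first of these had 2114 contacts per library, with log2 values of 3.03 and 3.01 at 0.25 h against 2.69 and 2.72 at 12 h. On chromosome 2, 85000001 to 89500000 with 110000001 to 115000000 stood at 5.73 times. The 0.25 h libraries had log2 values of 2.72 and 3.05, those of 1 h 2.62 and 2.65, of 3 h 2.56 and 2.50, with 2.02 and 2.04 at 12 h, lowest at 12 h, and the difference of 0.86 did not pass the threshold over all pairs (SE 0.19, limma adjusted p = 0.0985). The fifth, on chromosome 3, joined 45000001 to 50000000 with 125000001 to 130000000 at 4.81 times. This pair went the other way, from a mean log2 value of 2.05 at 0.25 h to 2.46 at 12 h, and the libraries of these 2 times did not overlap. The difference of -0.41 did not pass the threshold (SE 0.12, limma adjusted p = 0.141). Distances are those of hg19, and no karyotype of K562 was used. Whether rearrangement junctions of this line bring any of these blocks together was not tested. How uniquely reads can be placed in these blocks was not examined either.

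The lowest pairs of blocks under the same contact minimum held a small part of the expected signal. On chromosome 6, positions 30000001 to 35000000 stood at 0.103 of the expectation with 62000001 to 65000000 and at 0.113 with 65000001 to 70000000. The others were chromosome 5 positions 45000001 to 46500000 with 75000001 to 80000000 (0.117), chromosome 17 positions 5000001 to 10000000 with 50000001 to 55000000 (0.122), and chromosome 11 positions 20000001 to 25000000 with 65000001 to 70000000 (0.122). Their contacts numbered 104 to 179 per library on average, and none of the 8 libraries came above a log2 value of -2.54. These 10 pairs were named by their mean level, as a description. No gene annotation of hg19 was used, so none is given for these intervals.

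On a measure that combines 2 classes of chromatin, contacts across the centromere separated the classes more strongly than contacts within an arm. Bins were given a class from contacts between different chromosomes only, which neither cross-arm nor same-arm pairs enter. The outer 20% of bins on each side of the first eigenvector formed class 1, which met the gene-rich chromosomes 17, 19 and 22 more often, and class 2, which met the gene-poor chromosomes 4, 13 and 18 more often. Class strength, the mean enrichment within the classes over that between them, was 5.33 and 5.26 across arms at 0.25 h, 5.55 and 5.65 at 1 h, 5.66 and 5.63 at 3 h, with 6.92 and 6.83 at 12 h. Within arms, at the same distances, it was 3.81 and 3.70, 4.01 and 4.03, 4.14 and 4.16, and 5.26 and 5.19. In each of the 8 libraries the cross-arm value was the higher.

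Cross-arm class strength rose with digestion (rho 0.927, exact permutation p = 0.00317, Benjamini-Hochberg value 0.00762, r 0.894, n = 8). The step from 3 to 12 h, 1.23, was much larger than the step of 0.309 from 0.25 to 1 h and that of 0.0405 from 1 to 3 h, where the libraries overlap. Between the classes the cross-arm enrichment fell from 0.315 ± 0.0015 at 0.25 h to 0.247 ± 0.00133 at 12 h (rho -0.976, exact permutation p = 0.000794, Benjamini-Hochberg value over 10 further trends 0.00198, n = 8). The enrichment within class 1 was 1.94 ± 0.0231 at 0.25 h and 2.01 ± 0.0201 at 12 h (rho 0.683, exact permutation p = 0.0825). Within class 2 it was 1.39 ± 0.0349 and 1.38 ± 0.0352 (rho -0.39, exact permutation p = 0.361). Of these 3, only the enrichment between classes passed the threshold. The same-arm enrichment between the classes also fell, from 0.400 ± 0.00467 at 0.25 h to 0.298 ± 0.00187 at 12 h (SD, n = 2 each). For this same-arm fall rho was -0.976, and for the same-arm rise in class strength 0.976 (exact permutation p = 0.000794 for both, Benjamini-Hochberg value 0.00198, n = 8). Unlike across arms, the same-arm enrichment within class 1 rose past the threshold (rho 0.878, exact permutation p = 0.0103, Benjamini-Hochberg value 0.0206, n = 8). That within class 2 did not (rho 0.39, exact permutation p = 0.361). Whether the class 1 trends differed between cross-arm and same-arm pairs was not tested.

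Cross-arm over same-arm class strength was 1.41 ± 0.0184, 1.39 ± 0.0136, 1.36 ± 0.0092 and 1.32 ± 1.16e-05 from the shortest to the longest digestion (SD, n = 2 each; rho -0.927, exact permutation p = 0.00317, Benjamini-Hochberg value 0.00762, r -0.954, n = 8). The first run gave no such trend (rho -0.244, exact permutation p = 0.586). With the mean level between chromosomes subtracted the direction turned (rho 0.439, exact permutation p = 0.300).

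The arm ratio differed with the classes of the 2 bins, taken here relative to same-arm pairs of the same classes. At 0.25 h it was 0.753 ± 0.0139 for pairs within class 1, 0.682 ± 0.000835 within class 2 and 0.498 ± 0.00298 between the classes (SD, n = 2 each). At 12 h it was 0.805 ± 0.000833, 0.704 ± 0.00579 and 0.542 ± 0.00118. The 3 kinds of pair kept this order in all 8 libraries, with mixed pairs the lowest. All rose with time, with a rho of 0.781, 0.830 and 0.976 (exact permutation p = 0.0349, 0.0198 and 0.000794, n = 8). Their Benjamini-Hochberg values over the 10 further trends were 0.0499, 0.0331 and 0.00198.

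**Figure D5:**
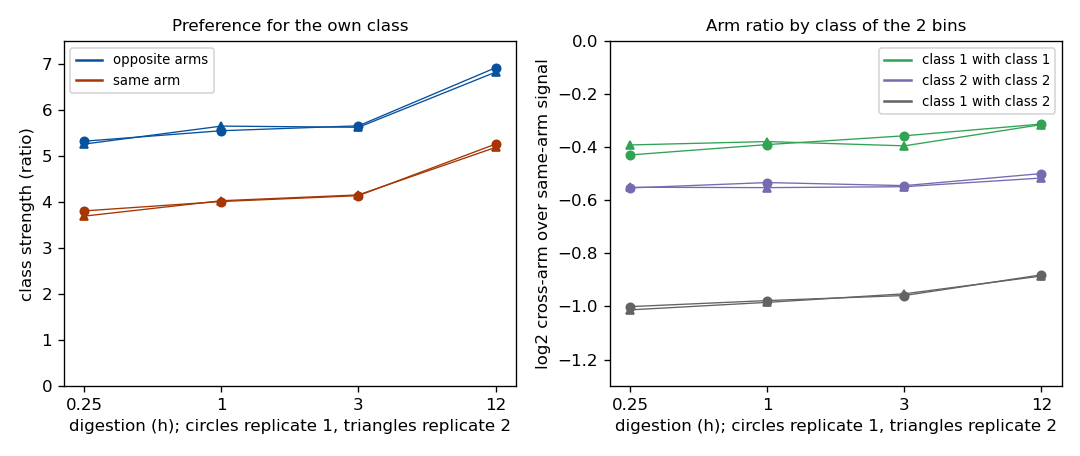
Left: class strength (vertical axis, ratio) against digestion time (horizontal axis, h, evenly spaced) for bins on opposite arms (blue) and on the same arm (orange). Right: log2 of cross-arm over same-arm signal by the classes of the 2 bins. Each marker is a library, circles for replicate 1 and triangles for replicate 2. The blue markers lie above the orange ones at each time, both are highest at 12 h, and pairs of different classes lie lowest on the right.

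Opposite arms of a chromosome were in contact far more often with each other than with other chromosomes. The mean cross-arm signal per pair was 5.57 and 5.37 times the mean between different chromosomes at 0.25 h, 5.49 and 5.48 times at 1 h, 5.55 and 5.55 times at 3 h, with 5.88 and 5.94 times at 12 h. The 12 h libraries lie above the rest, but the trend did not pass the threshold (rho 0.683, exact permutation p = 0.0825, Benjamini-Hochberg value 0.110, r 0.834, n = 8). It did without replicate 1 of 0.25 h (rho 0.973, exact permutation p = 0.00317) and with bins within 5 Mb of the gap left out (rho 0.878, exact permutation p = 0.0103). For single chromosomes the fold was taken over the chromosome's own mean signal with the others. Its log2 ranged from 1.08 on chromosome 9 and 1.81 on chromosome 1 to 3.86 on chromosome 18 and 4.03 on chromosome 19. All cross-arm pairs enter it at any distance, so these chromosomes are not compared at equal distance.

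The inner ends of the arms, the 10 Mb next to the gap, were in contact across the gap 31.3 to 32.7 times as often as inner ends of different chromosomes, over 5778 pairs. Both 12 h libraries lie above those of 1 h, and all other pairs of times overlap (rho 0.146, exact permutation p = 0.761, Benjamini-Hochberg value 0.761, r -0.225, n = 8). On recovered contacts this fold fell with time (rho -0.878, exact permutation p = 0.0103). The outer ends, the last 10 Mb of each arm, had 3.22 and 3.07 times the signal of outer ends of different chromosomes at 0.25 h, 3.21 and 3.17 times at 1 h, 3.21 and 3.20 times at 3 h, with 3.28 and 3.32 times at 12 h. The trend of the outer ends was not past the threshold (rho 0.634, exact permutation p = 0.110, Benjamini-Hochberg value 0.132, r 0.771, n = 8), and it was without replicate 1 of 0.25 h (rho 0.899, exact permutation p = 0.0127).

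Arms that lie folded alongside each other would bring together bins equally far from the centromere. Cross-arm pairs nearly equally far from the gap were therefore compared with pairs at unequal distances from it, at the same distance from each other. The former had 1.02 to 1.03 times the signal of the latter, above 1 in each of the 8 libraries. At a given distance, however, the unequal pairs have their nearer bin closer to the gap. There the arm ratio was lower, 0.635 within 5 Mb of the gap against 0.961 at 20 to 40 Mb. The comparison does not separate mirrored position from nearness to the gap, and folding was not tested. No trend with digestion time passed the threshold (rho -0.146, exact permutation p = 0.761, Benjamini-Hochberg value 0.761, r -0.315, n = 8). The sign of this trend was not stable, with a rho of 0.927 (exact permutation p = 0.00317) when a single limit of 1/2 on the relative difference of the distances separated the 2 kinds of pair in place of 1/3 and 2/3.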

How the data were processed

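The authors deposited a file per library and sequencing run that lists pairs of bins with a balanced contact signal, in 20 kb bins for the second run and 50 kb bins for the first. Per the submitters' processing notes, tools were HiC-Pro 2.11.1 and Bowtie2 2.3.4.1, with build hg19. Read filters and balancing settings are not given in the sources used here. Signal was summed to 500 kb bins, each used with at least 60% of its 20 kb bins present in all 8 files, and expressed per present bin pair. Whole contacts, recovered with all values within 0.01 of a whole number, served for shares and depths. The same-arm expectation is the mean of same-arm pairs at that distance in the same library, over distances with at least 10 cross-arm and 10 same-arm pairs. Bands and positions pool the 17 chromosomes. A pair of 5 Mb blocks needed at least 25 pairs of bins.

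Library values were tested by exact two-sided permutation, and chromosomes and block pairs by limma 3.58.1 (R 4.3.3) over all 4 times with Benjamini-Hochberg adjustment at 0.05. Scripts were tested on simulated data. Block pairs with a mean of at least 100 contacts per library were named if among the 5 largest called changes in each direction, of which there were none, or the 5 highest or 5 lowest levels. Members, lists and tests were chosen with earlier results of these data known. Subtraction of the level between chromosomes, thinning to equal depth, the spread by contacts, further time contrasts and class trends were added after seeing the data. Deviations of replicates with the same number did not correlate above 0.1 for every pair of times (correlations of -0.03 to 0.06 over 6088 block pairs and -0.69 to 0.36 over 17 chromosomes), so the numbers were not taken to pair the samples, although the cross-arm share, the mirrored-pair ratio and the enrichment within class 1 were higher in replicate 2 at all 4 times, and that within class 2 in replicate 1. At all 4 times replicate 1 was also the deeper, and replicate 2 had the larger share of contacts between chromosomes. Low correlations over block pairs do not show the numbers to be unrelated to the libraries. Reads without molecular identifiers are not independent molecules.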

Additional observations from a re-analysis of the deposited data

How the results depend on the processing

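The rise of the arm ratio and of its band under 20 Mb kept its direction and its side of the threshold under all alternatives tried, except that the arm ratio without bins within 5 Mb of the gap had a rho of 0.732. Its level, a mean log2 ratio of -0.62, was -0.57 on recovered contacts and also on thinned contacts, -0.61 in the first run, -0.57 with 1 Mb bins, -0.72 with 90% of a bin present, -0.69 with the level between chromosomes subtracted, -0.52 as a single ratio of sums and -0.52 as a median over chromosomes. In the first run rho was 0.683 at 20 to 40 Mb, 0.634 at 40 to 80 Mb, 0.830 from 80 Mb, 0.0488 for mirrored pairs, 0.878 for outer ends and -0.244 for cross-arm over same-arm class strength. On recovered and on thinned contacts rho was -0.781 and -0.586 from 80 Mb and -0.878 and -0.878 for inner ends, and on thinned contacts it was 0.976 for outer ends. Without bins within 5 Mb of the gap it was 0.683 for mirrored pairs and 0.878 for cross-arm over between-chromosome signal. It was 0.927 for mirrored pairs with a limit of 1/2, 0.439 for the class strength ratio with the level between chromosomes subtracted, 0.878 for outer ends with 90% of a bin present and -0.0488 for inner ends with 1 Mb bins. Leaving out a library in turn gave a rho of 0.606 to 0.899 from 80 Mb, -0.606 to 0.165 for mirrored pairs, 0.532 to 0.973 for cross-arm over between-chromosome signal, 0.459 to 0.899 for outer ends and -0.0184 to 0.642 for inner ends. Of 17 chromosomes, the trend with time called 16, and 10 in the first run and 8 without bins near the gap, while the comparison of 0.25 and 12 h called 16, and 10 without those bins.

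The level of chromosome 1 turned to 0.11 on recovered contacts, 0.01 (0.0087) in the first run and 0.11 on thinned contacts, and that of chromosome 9 to 0.26 with 1 Mb bins. Other large moves were those of chromosome 9 from -0.61 to -1.11 and of chromosome 19 from -0.56 to -1.32 with 90% of a bin present, and of chromosome 18 from -0.50 to -1.02 without bins near the gap. The difference between 0.25 and 12 h turned for chromosome 1 to 0.0668 on recovered and 0.0679 on thinned contacts, for chromosome 2 to -0.0423 and -0.0440, and for chromosome 12 to 0.0018 on recovered contacts. For chromosome 2 it was -0.0530 with 90% of a bin present, -0.0256 without bins near the gap and -0.0011 to 0.0269 with a library left out, below 0 only without replicate 2 of 0.25 h. Over 10 other settings and 8 left-out libraries the calls between 0.25 and 12 h held on chromosomes 3, 4, 6, 7, 8 and 18, and those of chromosomes 5, 10 and 11 were lost only without bins near the gap. Cross-arm block pairs called between 0.25 and 12 h numbered 0, against 368 on recovered contacts (17.7%, 226 lower and 142 higher at 0.25 h; 19.8% of all block pairs) and 154 with the spread modelled on contacts (7.39% against 13.3% of all), and 0 to 3 with a library left out. The trend called 11, all rising, against 341 on recovered contacts, of which 203 rose (59.5%; 16.4% called, against 18.8% of all), 136 with the spread modelled on contacts, of which 116 rose, beside 600 same-arm pairs (12.1% of all called), 0 in the first run, 0 with a replicate block and 0 to 1 with a library left out. The cause of these differences was not tested. With the replicate number as a block, the trend of the arm ratio had an exact permutation p of 0.00347 over 576 arrangements, and 14 chromosomes were called between 0.25 and 12 h in place of 16, without chromosomes 1 and 16. The block moved no planned library trend across the threshold.

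Cross-arm pairs are sparse, with a median of 412 contacts per block pair against 1857 for same-arm pairs, which limits what single block pairs can show. The 17 chromosomes share the 8 libraries, and each time had 2 of them.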
